A study of Mus musculus with 2 samples.

Results

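A gate built on monocyte genes was applied to each cell barcode in single-cell 3′ RNA-seq of mouse epididymal fat. Of 26186 barcodes, 212 passed, 97 in the knockout library and 115 in the wild-type library. A barcode needed at least 1500 UMIs (unique molecular identifiers, 1 per captured transcript), 500 genes or more, and a mitochondrial share of no more than 15%. It also needed the myeloid lysozyme gene Lyz2 at 20 UMIs per 10000 (CP10k) or more. At least 3 UMIs had to come from Ccr2, Ly6c2, Plac8 and Ifitm6 together. Macrophages were kept out by fewer than 10 CP10k of C1qa, C1qb and C1qc, and dendritic cells by at most 1 UMI of Cd209a, Flt3, Xcr1 and Clec9a. Lyz2 barcodes at or above that C1q limit, with no need for marker UMIs, are called C1q macrophages. Neutrophils were kept out by fewer than 50 CP10k of S100a8 and S100a9, and stroma by fewer than 40 CP10k of Col1a1, Col3a1 and Dcn. Members were thus chosen by the measured levels of these 17 genes, and those levels are given below as descriptions.

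Both libraries hold the stromal vascular fraction, which is digested fat freed of its adipocytes, from epididymal fat of mice after 10 weeks on a high-fat diet. The knockout library carries a conditional deletion of Camk2d in myeloid cells, labelled Camk2d-CKO, and the other library is labelled wild type. The Cre driver, whether the wild type carried Cre or a floxed allele, and the age and number of the mice are not given in the sources used here. A description field of both samples names embryonic hindlimb, whereas all other fields name adipose tissue. Each genotype has a single library, so no test between genotypes is possible. Each interval below is a 95% interval that covers counting error only, and differences between mice, between libraries and between genotypes cannot be told apart.

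Monocytes are made in bone marrow and circulate in blood. Classical monocytes carry Ly6C and the chemokine receptor CCR2, leave the blood at sites of inflammation and there take on features of macrophages or dendritic cells. Patrolling monocytes carry little Ly6C and survey the vessel wall. In obesity, entry of CCR2-bearing monocytes into visceral fat is a known source of its macrophages. Camk2d encodes the delta chain of CaMKII, a kinase switched on by calcium-bound calmodulin.

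The knockout library held 10631 barcodes and 87015918 UMIs, and the wild-type library 15555 barcodes and 75436677 UMIs. Barcodes past the depth filter numbered 8032 and 13085, with medians of 9652 and 3799 UMIs. Gated barcodes had medians of 12232 and 6494 UMIs and of 2913 and 2173 genes, and summed to 1452603 and 895630 UMIs. The libraries shared 48 barcode sequences, of which none was gated in both and 2 were gated in one and present in the other. Per barcode the knockout library was the deeper one.

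Gated barcodes made up 1.21% of knockout barcodes past the depth filter (0.980 to 1.47, exact binomial) and 0.879% of wild-type barcodes (0.726 to 1.05). Of barcodes with Lyz2 at 20 CP10k or more, they were 6.39% of 1517 in the knockout and 3.08% of 3730 in the wild type. The order of the shares depended on depth: with at least 3000 UMIs required per barcode they were 1.24% and 1.35%. When each barcode was first thinned to 1500 UMIs, the shares were 0.585% and 0.405%. At the edge of the gate, 9 knockout and 13 wild-type barcodes had exactly 3 marker UMIs, and 12 and 26 barcodes that met every other criterion had 2. Likewise, 4 and 13 barcodes lay just inside the C1q limit, at 8 to 10 CP10k, and 6 and 10 just outside, at 10 to 12 CP10k.

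The 4 marker genes that chose the barcodes were unevenly spread. In UMIs per 1000000 (CPM), summed over the gate, Ccr2 was at 653 (knockout) and 897 (wild type), Ly6c2 at 113 and 62.5, Plac8 at 615 and 227 and Ifitm6 at 178 and 201. Ccr2 had a UMI in 83 of 97 and 113 of 115 barcodes, but Ly6c2 in only 23 and 17. In the stromal gate, expected to lack these genes, Ly6c2 was at 2.14 and 4.83 CPM and Ifitm6 at 0.845 and 2.47 CPM. Ccr2 was there at 3.51 and 26.0 CPM with a UMI in 3.19% and 13.5% of barcodes. Plac8 was at 91.7 and 64.4 CPM with a UMI in 37.0% and 23.2% of barcodes. The expectation thus did not hold for Plac8, and its source there was not tested.

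Plac8, one of the gate's own genes, divided the gated barcodes. This small cysteine-rich protein gene, which is high in blood monocytes, had no UMI in 54 of 97 knockout and 79 of 115 wild-type barcodes. Barcodes with Plac8 at 5 CP10k or more are called Plac8-high here and the rest Plac8-low, a limit chosen after the values were seen; 7 and 5 barcodes lay between 3 and 7 CP10k. There were 31 Plac8-high barcodes in the knockout library and 19 in the wild-type library, and 66 and 96 Plac8-low ones. Plac8-high barcodes were 32.0% of the gate in the knockout (22.9 to 42.2) and 16.5% in the wild type (10.3 to 24.6), or 0.386% and 0.145% of all barcodes past the depth filter. Their median depth was 9455 and 5633 UMIs, against 17162.5 and 7106.5 in Plac8-low barcodes.

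**Figure D1:**
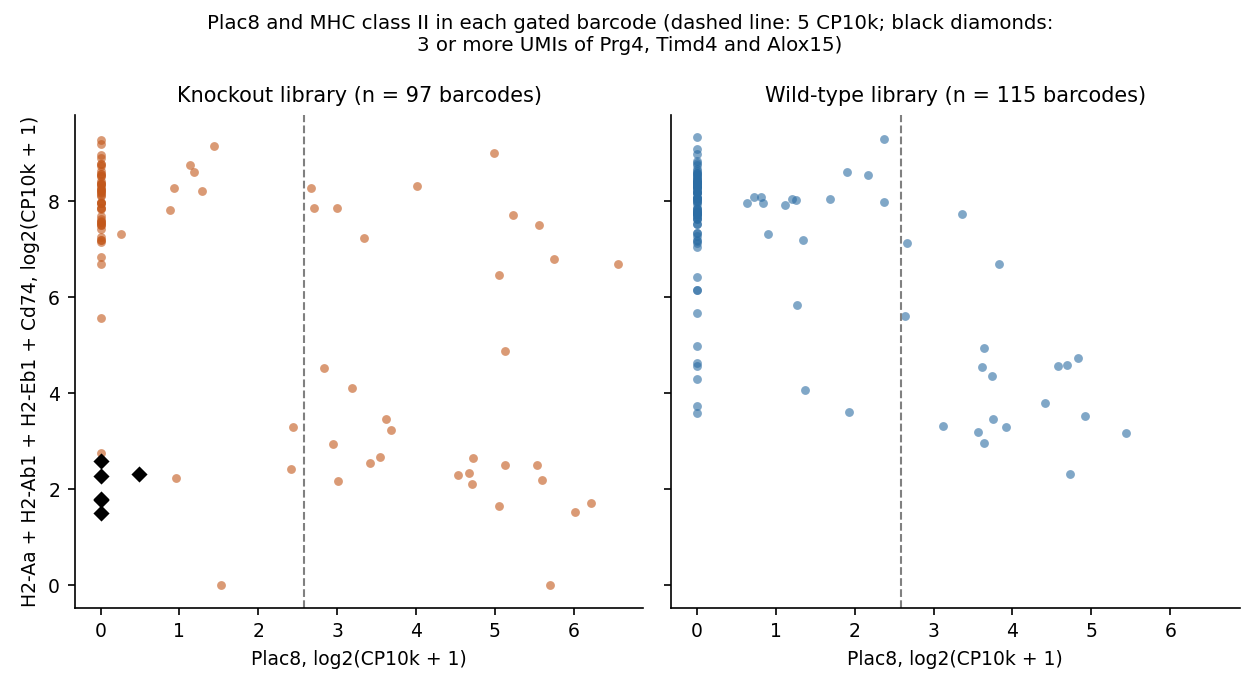
Each point is 1 gated barcode, placed by Plac8 (x axis) and by the sum of 4 MHC class II genes (y axis), both as log2(CP10k + 1); the dashed line marks 5 CP10k of Plac8 and black diamonds mark the 6 knockout barcodes with at least 3 UMIs of Prg4, Timd4 and Alox15. Most points in both libraries stand at no Plac8 and high MHC class II; barcodes right of the line are 31 of 97 and 19 of 115.

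Plac8-high barcodes held more of several genes of blood monocytes of both kinds, but not of all such genes. Ly6c2, the Ly6C gene of classical monocytes, is one of the gate's own genes, so its levels only describe the strata. It stood at 446 CPM in Plac8-high knockout and 423 CPM in Plac8-high wild-type barcodes. In Plac8-low barcodes it was at 33.3 and 12.7 CPM. A Ly6c2 UMI was present in 14 of 31 and 10 of 19 Plac8-high barcodes but in 9 of 66 and 7 of 96 Plac8-low ones. In the stromal gate 1.85% and 2.61% of barcodes had one, at median depths of 10425 and 5523 UMIs. Hp (haptoglobin) was at 296 and 221 CPM in Plac8-high against 13.6 and 10.2 CPM in Plac8-low barcodes. Chil3, a chitinase-like protein of classical monocytes, was at 307 and 377 against 41.8 and 20.3 CPM. Itgal, the integrin chain by which patrolling monocytes hold to endothelium, was at 439 and 294 against 28.1 and 20.3 CPM. Ace, Treml4 and Adgre4, genes of patrolling monocytes, together reached 5 CP10k in 15 of 31 and 5 of 19 Plac8-high barcodes, and in 4 of 66 and 0 of 96 Plac8-low ones. Ace also stood at 309 and 243 CPM in the stromal gate, whereas Treml4 was there at 0 and 0.54 CPM. Fn1, counted below with classical monocyte genes, went the other way, at 610 and 1462 CPM in Plac8-high against 4126 and 2882 CPM in Plac8-low barcodes. So did Ear2, counted below with patrolling monocyte genes, at 321 and 55.2 against 684 and 553 CPM.

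Plac8-low barcodes held more antigen presentation and tissue genes than Plac8-high ones. Ccr2, the receptor for Ccl2, was at 670 CPM in knockout and 912 CPM in wild-type Plac8-low barcodes, a level that the gate itself sets. The MHC class II gene H2-Aa was at 4789 and 5384 CPM in Plac8-low barcodes. Per barcode, the sum of H2-Aa, H2-Ab1, H2-Eb1 and Cd74 had medians of 248 and 262 CP10k in Plac8-low and of 8.43 and 19.5 CP10k in Plac8-high barcodes. Retnla, a secreted protein of alternatively activated macrophages, was at 2735 and 5304 CPM against 92.8 and 73.6 CPM. Fcrls (an Fc receptor-like gene of macrophages), Lyz1 (a lysozyme) and Mrc1 (the mannose receptor) were also on the Plac8-low side in both libraries. Cd226, an adhesion receptor, was at 0 UMIs in Plac8-high barcodes and had a UMI in 23 of 66 and 34 of 96 Plac8-low barcodes. Over 571 genes that reached 200 CPM in both libraries of 1 stratum, Plac8-high exceeded Plac8-low 2-fold or more in both libraries for 34 and was below it by that much for 28. Vcan, a classical monocyte gene outside the gate, was at 19.6 CPM in knockout Plac8-low barcodes. It had a UMI in 7 of 66 and 12 of 96 Plac8-low barcodes and in 11 of 31 and 6 of 19 Plac8-high ones. Vcan is not particular to monocytes here, as 59.2% and 52.6% of stromal-gate barcodes had a UMI of it. Given these MHC class II, Retnla and Vcan levels, the whole set is called gated barcodes below and not monocytes.

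**Figure D2:**
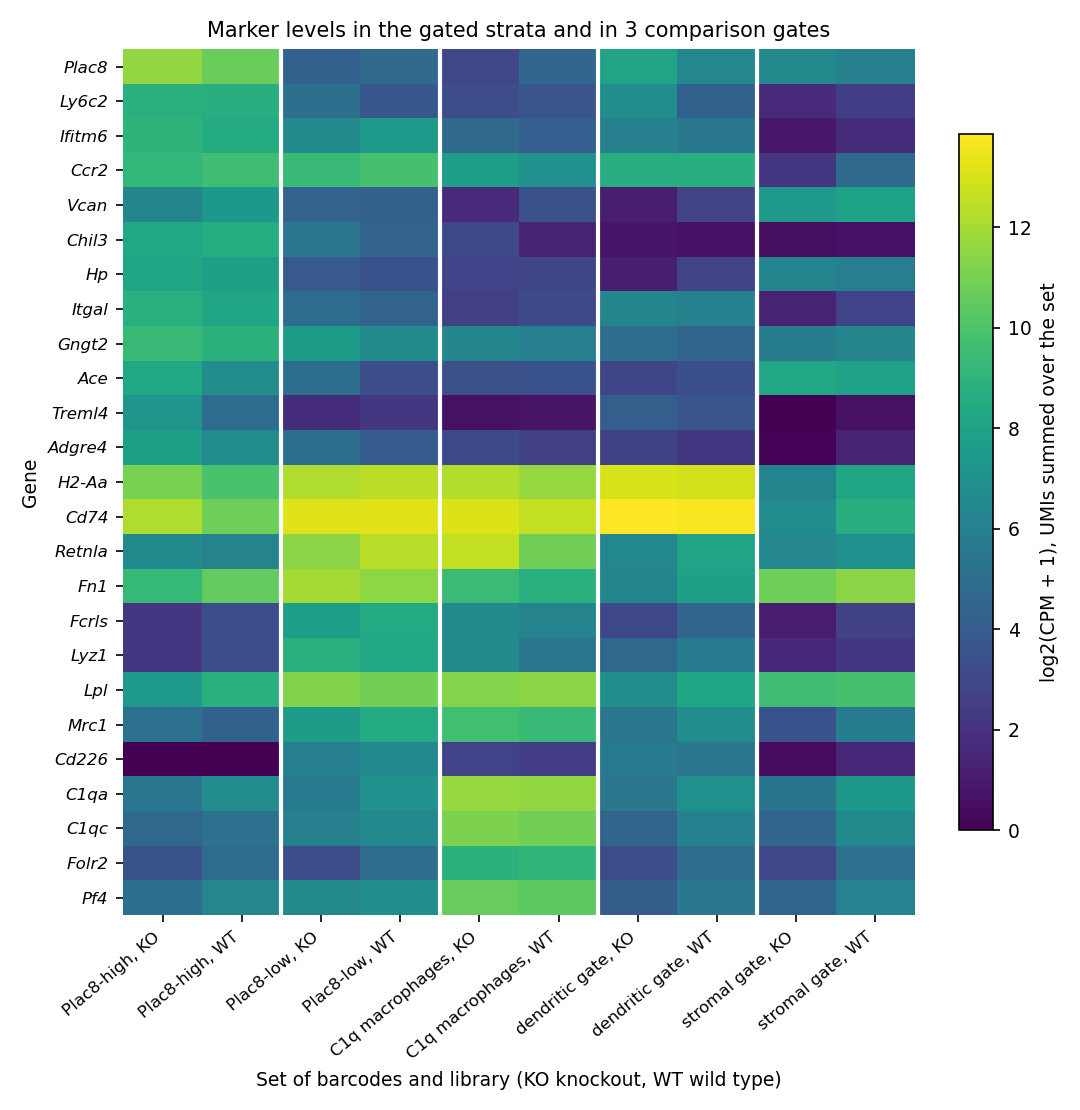
Colour gives log2(CPM + 1) of each gene (rows) in UMIs summed over each set of barcodes and library (columns). Plac8, Ly6c2, Hp and Itgal are highest in Plac8-high, MHC class II genes are high in Plac8-low, C1q and dendritic columns, and C1qa, Folr2 and Pf4 peak in C1q macrophages.

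Against C1q macrophages of the same library, gated barcodes of both libraries differed in many genes besides those of the gate. Over 1261 genes that reached 100 CPM, the gate stood 2-fold or more above macrophages in both libraries for 38 genes and that far below for 96. Napsa, an aspartic protease, was at 169 CPM in gated knockout barcodes and 13.05 CPM in macrophages, and at 162 and 17.9 CPM in the wild type. Fn1 (fibronectin) was at 3448 against 694 CPM in the knockout and 2710 against 448 CPM in the wild type. Ear2, a ribonuclease of monocytes and eosinophils, was at 614 against 119 CPM and 492 against 58.3 CPM. The resident macrophage genes Folr2, Lyve1, Pf4 and Stab1 were on the other side: Pf4 was at 80.5 against 1614 CPM in the knockout and 105 against 1328 CPM in the wild type. Lyz2, which the gate required, was close in both types, at 10668 and 8513 CPM in the knockout. Napsa reached 496 CPM in knockout dendritic-gate barcodes, above its level in gated barcodes, whereas Ear2 was at 26.0 CPM there.

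Other cell types left traces in the gate that differed between libraries, and their part in the results below was not tested. Macrophage markers (7 genes: Mrc1, Cd163, Folr2, Lyve1, Pf4, Trem2, Gpnmb) summed to 387 CPM in knockout and 1046 CPM in wild-type gated barcodes, against 4380 and 4974 CPM in C1q macrophages. T cell markers summed to 134 and 30.1 CPM, with 2 or more UMIs in 8 and 3 barcodes. Endothelial markers summed to 245 and 16.7 CPM, with 2 or more UMIs in 12 and 2 barcodes. Natural killer markers summed to 54.4 and 10.0 CPM and B cell markers to 52.3 and 73.7 CPM. Mast cell markers summed to 3.4 and 90.4 CPM, and stromal markers to 553 and 1056 CPM. Globin and other erythroid transcripts summed to 2728 and 6395 CPM, and at least 2 UMIs of them were in every gated barcode. Neutrophil markers summed to 48 and 27 UMIs, or 33.04 CPM in knockout and 30.15 CPM in wild-type gated barcodes. They were at 71.37 and 165.5 CPM in Plac8-high barcodes, against 23.88 and 11.44 CPM in Plac8-low ones. Plasmacytoid dendritic markers summed to 83.99 and 94.91 CPM in the gate. Of the neutrophil markers Cxcr2, Mmp9 and Ly6g were at 0 in both libraries, and of the plasmacytoid dendritic markers Siglech, Klk1 and Cox6a2. Conventional dendritic markers summed to 138 and 112 UMIs, or 95.002 CPM in knockout and 125.05 CPM in wild-type gated barcodes. They were at 311.7 and 260.7 CPM in the dendritic gate and at 82.15 and 104.2 CPM in C1q macrophages. No doublet caller was run; without barcodes holding 2 or more UMIs of T, B, natural killer, endothelial or mast markers, 74 and 89 gated barcodes were left.

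Camk2d, the targeted gene (ENSMUSG00000053819, plus strand of chromosome 3, 126596302 to 126846326, mm10), was not lower in the knockout gate. It had 95 UMIs in 47 of 97 knockout barcodes and 44 UMIs in 27 of 115 wild-type barcodes, or 65.4 and 49.1 CPM. The log2 ratio of knockout over wild type was 0.41 (-0.12 to 0.96). Plac8-high barcodes held 175 and 110 CPM (log2 0.66) and Plac8-low barcodes 39.2 and 40.7 CPM (log2 -0.05). In C1q macrophages it was lower in the knockout, at 25.1 against 46.4 CPM (log2 -0.88). A 3′ tag checks the deletion only if the deleted exons or the stability of the transcript change the tag, and the deleted exons are not given in the sources used here. Its relatives were close between libraries: of 15 genes of calmodulin, its kinases and calcineurin at 10 CPM or more, 0 were higher by 1.5-fold or more and 2 were lower. At that level 9.74% of all 7251 genes were higher and 14.7% lower. The 2 lower ones were Camk2g, the gamma chain of CaMKII (16 and 21 UMIs, log2 -1.09), and Nfatc2, a transcription factor freed by calcineurin (15.1 against 25.7 CPM, log2 -0.76, -1.67 to 0.15).

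Across the gate 2676 genes averaged 50 CPM or more and had 30 UMIs in one of the libraries. Of these, 181 (6.76%) were higher in the knockout by 1.5-fold or more and 140 (5.23%) lower, with a median log2 ratio of -0.03. In Plac8-high barcodes 266 of 1314 genes (20.2%) were higher and 75 (5.71%) lower, and in Plac8-low barcodes 171 of 2647 (6.46%) were higher and 147 (5.55%) lower. The Plac8-high shares rest on 280236 and 108733 UMIs, fewer than those of Plac8-low barcodes. As the knockout sum is the larger, 30 UMIs are reached at a lower CPM there than in the wild type. This rule thus lets in more genes through a high knockout count. At a floor of 10 CPM with no UMI rule, 25.2% of 6766 Plac8-high genes were higher and 30.5% lower.

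**Figure D3:**
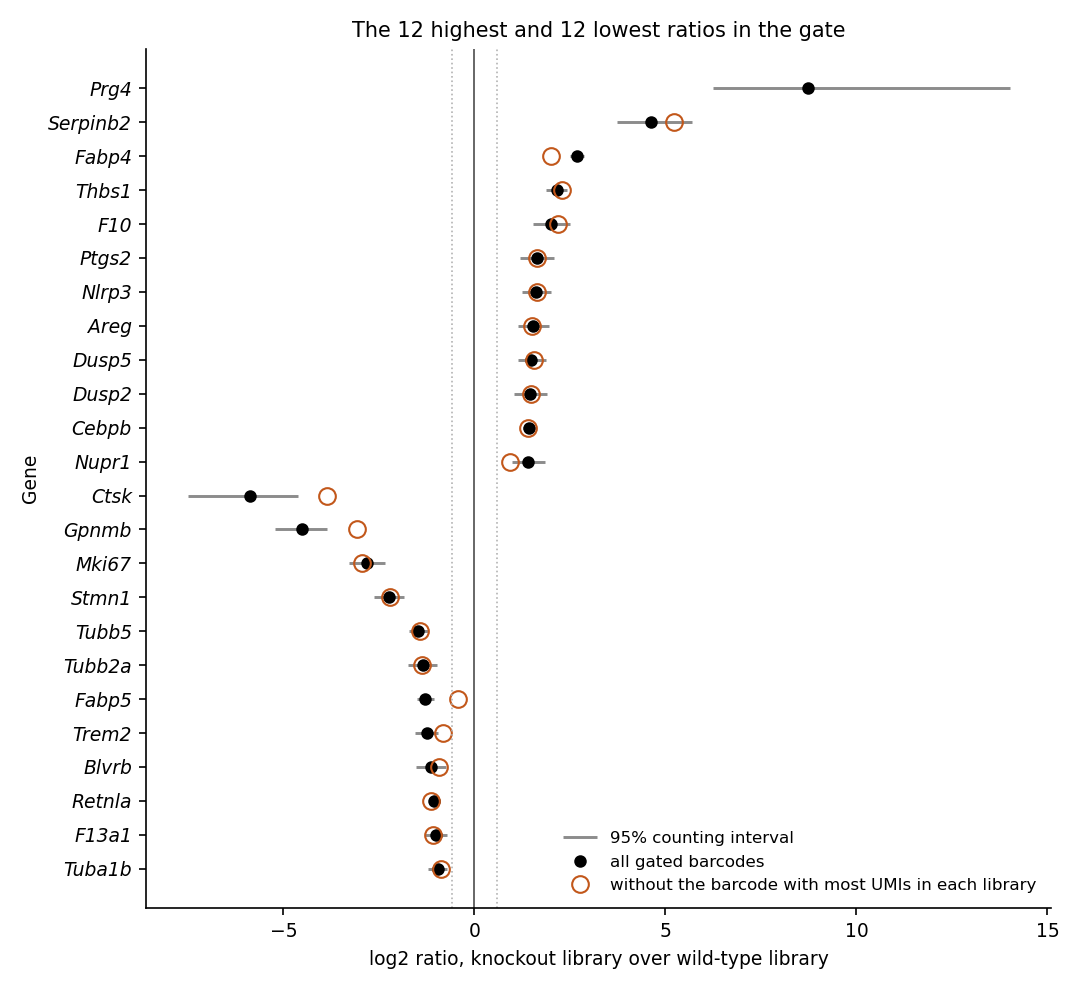
Black points give the log2 ratio of the knockout over the wild-type library for the 12 highest and 12 lowest genes of the gate at a mean of 100 CPM or more, grey lines their 95% counting intervals, and open circles the ratio without the barcode that holds most UMIs of the gene in each library. Prg4, with 1 wild-type UMI in 1 barcode, has no circle; Ctsk, Gpnmb, Fabp4, Fabp5 and Nupr1 move most when that barcode is left out.

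The largest ratio belonged to a handful of barcodes. Prg4, which encodes the lubricant proteoglycan lubricin, had 685 UMIs in 8 knockout barcodes and 1 UMI in the wild type (log2 8.72, 6.24 to 14.03). Alox15, a lipoxygenase, had 225 UMIs and 1 UMI, and Timd4, a receptor for dying cells, had 41 and 0 UMIs. All 3 are known from macrophages of the body cavities. Of the gated barcodes, 6 knockout and 0 wild-type ones held at least 3 UMIs of these 3 genes, all 6 of them Plac8-low, with 21633 to 28288 UMIs each. A count of 0 among 115 barcodes allows a share of up to 2.61% (3 counts of 115). Without these 6 barcodes, Prg4 was at 1 UMI in each library's Plac8-low barcodes. In C1q macrophages Prg4 was also higher in the knockout, at 144 against 7.85 CPM.

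Serpinb2, Nupr1, Thbs1 and F10 leaned on the same barcodes. Serpinb2, an inhibitor of plasminogen activators, was at 275 against 11.2 CPM in the gate (log2 4.62, 3.73 to 5.70), and in Plac8-low barcodes its log2 ratio went from 5.45 to 1.35 (-0.02 to 2.96) without them. For Nupr1, a stress-induced chromatin protein gene, it went from 1.67 to -0.35. Thbs1, which encodes the matrix protein thrombospondin 1, was at 630 against 142 CPM (log2 2.15, 1.88 to 2.43). Its level was near equal in Plac8-high barcodes, at 938 and 874 CPM, while Plac8-low barcodes held 556 and 40.7 CPM, or 164 and 40.7 CPM without the 6 barcodes. F10, coagulation factor X, was at 189 against 46.9 CPM (log2 2.01), and at 112 against 48.3 CPM in Plac8-low barcodes without them. Fabp4, a fatty acid carrier of adipocytes and macrophages, was at 1730 against 269 CPM, but 49.6% of its knockout UMIs lay in 1 barcode, which is not one of the 6. Without the 6 its Plac8-low log2 ratio was 3.04. Its median per gated barcode was 1.02 CP10k in the knockout and 1.75 CP10k in the wild type, the opposite order.

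Cebpb was higher in the gate and in both strata. It encodes C/EBPβ, a transcription factor that drives cytokine genes in myeloid cells (ENSMUSG00000056501, plus strand of chromosome 2, 167688915 to 167690418). It stood at 1409 against 525 CPM (log2 1.43, 1.28 to 1.57). Median levels per barcode were 15.2 and 3.93 CP10k, with quartiles of 5.73 and 24.4 against 1.42 and 8.25 CP10k. Plac8-high barcodes held 2584 and 1269 CPM (log2 1.03) and Plac8-low barcodes 1128 and 422 CPM (log2 1.42). The ratio was of like size in C1q macrophages (log2 1.20) and in the stromal gate (log2 1.22), and smaller in the dendritic gate (log2 0.24). Of 17 myeloid transcription factors, 5 passed 1.5-fold upward in the knockout gate (Cebpb, Cebpd, Bhlhe40, Irf1 and Id2) and 1 was lower, with a list median of -0.02. Irf8, which directs monocyte and dendritic cell fate, was the lower one, at 44.7 against 83.7 CPM (log2 -0.90). Over all genes at 10 CPM or more 9.74% were higher and 14.7% lower. Spi1, which encodes the myeloid factor PU.1, was level at 339 and 344 CPM.

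Cytokine and inflammasome genes were higher in the knockout gate. Of the 20 genes of the inflammatory list, 14 were higher by that fold, 0 were lower and 6 lay between. The list median was 0.94, beside -0.08 for all genes at 10 CPM or more, of which 9.74% were higher and 14.7% lower. Il1b, which encodes the cytokine interleukin 1 beta, was at 2163 against 1162 CPM (log2 0.90, 0.79 to 1.00), with medians per barcode of 17.2 and 2.20 CP10k. Nlrp3, the sensor of the inflammasome that matures it, was at 260 against 84.9 CPM (log2 1.62). Cxcl2, a chemokine for neutrophils and the most abundant gene of the list, was at 5503 against 2681 CPM (log2 1.04, 0.97 to 1.10). Ptgs2, the inducible cyclooxygenase, was at 180 against 58.1 CPM (log2 1.63). Osm, a cytokine of the interleukin 6 family, was at 138 against 15.6 CPM, with log2 ratios of 5.32 in Plac8-low and -0.43 in Plac8-high barcodes. Il1a, which encodes interleukin 1 alpha, was at 167 against 24.6 CPM. The chemokine genes Ccl3 and Ccl4 were on the other side, at 39.2 against 46.9 CPM and 104 against 147 CPM, within the 1.5-fold limit.

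By stratum, the inflammatory list gave the following counts. In Plac8-high barcodes 8 of 19 members were higher and 1 was lower (median 0.52), where 25.2% of all genes were higher and 30.5% lower. In Plac8-low barcodes 14 of 20 were higher and 1 was lower (median 1.03), where 10.5% and 15.1% of all genes were. Without the 6 Prg4 barcodes, 12 of 19 Plac8-low members were higher and 0 were lower (median 0.81), where 9.21% and 16.2% of all genes were. Tnf, the tumour necrosis factor gene, had 14 UMIs in Plac8-high knockout and 0 in Plac8-high wild-type barcodes. Il6 went from 159.5 to 65.2 CPM in knockout Plac8-low barcodes without the 6, against 41.9 CPM in the wild type. C1q macrophages had 15 of 20 members higher and 0 lower (median 0.78), where 3.66% and 3.9% of all genes were. The stromal gate had 7 of 13 higher and 4 lower (median 0.62), the lower ones being Il1b, Cxcl2, Ccl4 and Tnf, where 3.59% and 7.18% of all genes were. The dendritic gate had 5 of 17 higher and 2 lower (median 0.13), where 5.77% and 8.46% were. Differences between these sets were not tested.

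Interferon-stimulated genes were higher in the knockout gate in both strata. These genes are switched on when interferon signalling brings a transcription factor complex to a DNA element called the ISRE. Of 17 members at 10 CPM or more, 13 were higher by 1.5-fold, 0 were lower and 4 lay between, with a median of 0.93. Over all genes at that level 9.74% were higher and 14.7% lower. Of the list's 23 genes, 22 were in the file, and 5 of those were below 10 CPM. Ifi27l2a, the most abundant member, was at 1257 against 563 CPM (log2 1.16, 1.02 to 1.30), with medians of 9.29 and 3.11 CP10k per barcode. Irf7, the factor that amplifies type I interferon, had 81 and 12 UMIs, or 55.8 against 13.4 CPM (log2 2.06, 1.17 to 3.07). Oasl2, an oligoadenylate synthetase-like gene, had 50 and 7 UMIs, or 34.4 against 7.82 CPM (log2 2.14). Isg15, a ubiquitin-like modifier, was at 72.3 against 38.0 CPM (log2 0.93, 0.36 to 1.53). Cxcl10 was level, at 64.0 and 63.6 CPM.

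Some promoters of the list hold letters of this element. RefSeq promoters (GRCm38.p6, 250 bases before to 50 after the start) were found for 15 of the 23 genes and searched on both strands for GAAANNGAAA, whose reverse complement is TTTCNNTTTC, overlapping matches included. The motif was in 9 of the 15 (60%) and in 3.99% of 27025 genes with a promoter. It was found for Isg15, Rsad2, Bst2, Gbp2, Irgm1, Stat2, Ifit1, Ifit3 and Cxcl10, but not in this window of Irf7, Oasl2, Oasl1, Ifi47, Xaf1 or Ifit2. The 150 bases before the start of 3 members that were higher are shown because they hold the motif singly or in overlapping copies. They are at chr4:156200819-156200968, chr8:71537473-71537622 and chr12:26456453-26456602, all on the minus strand, written 5′ to 3′ with the matches in capitals.
Isg15: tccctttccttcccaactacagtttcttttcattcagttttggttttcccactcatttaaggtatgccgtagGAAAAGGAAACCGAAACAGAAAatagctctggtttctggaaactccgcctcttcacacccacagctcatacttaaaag
Bst2: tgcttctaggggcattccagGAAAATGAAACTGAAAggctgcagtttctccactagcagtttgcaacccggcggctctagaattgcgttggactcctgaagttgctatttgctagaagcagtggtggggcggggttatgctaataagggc
Rsad2: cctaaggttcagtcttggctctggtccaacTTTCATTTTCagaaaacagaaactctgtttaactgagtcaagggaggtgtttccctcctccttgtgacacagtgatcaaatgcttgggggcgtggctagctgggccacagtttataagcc
Isg15 has 3 overlapping matches that begin at -78 to -66 from the start, Bst2 (a membrane tether of viruses) has 2 at -130 and -124, and Rsad2 (the antiviral enzyme viperin) has 1 at -120. Bst2 was at 114 against 64.8 CPM (log2 0.81) and Rsad2 at 32.4 against 16.7 CPM (log2 0.95, 0.09 to 1.90). Stat2 and Cxcl10, which also hold the motif, lay within 1.5-fold (log2 0.21 and 0.01).

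**Figure D4:**
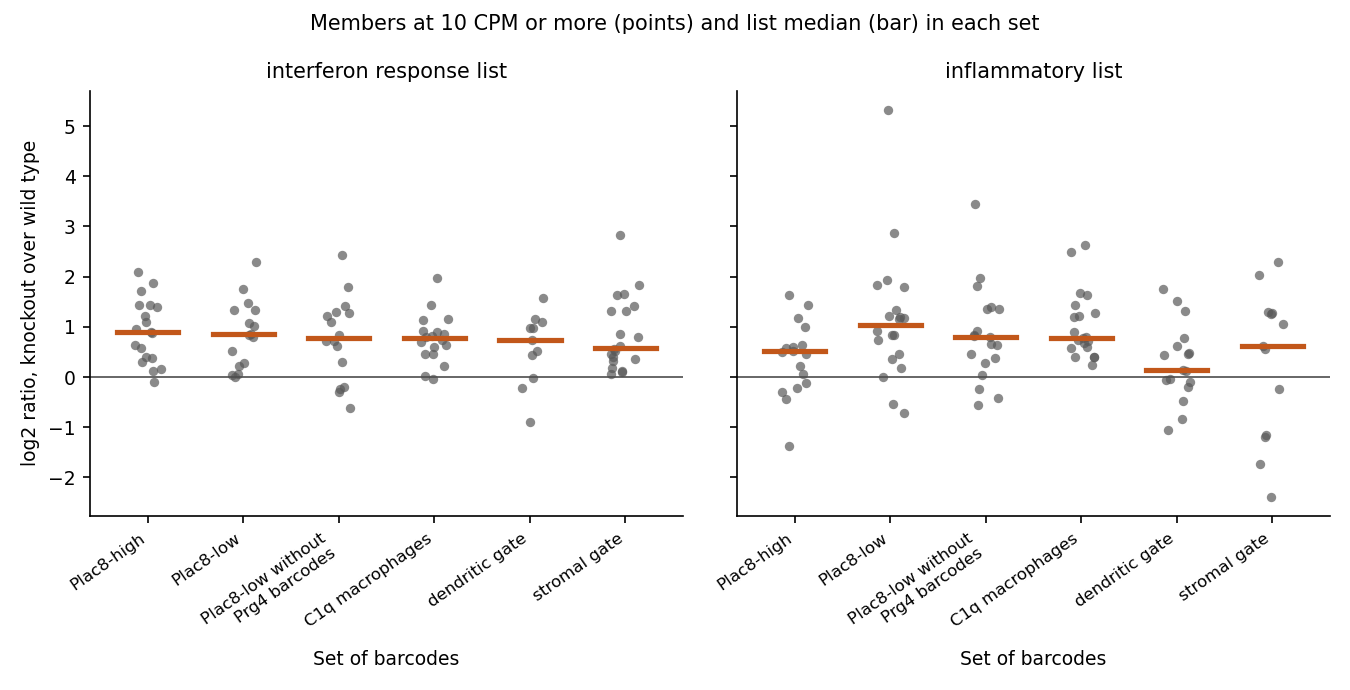
Points are the log2 ratios, knockout over wild type, of the members of the interferon and inflammatory lists at 10 CPM or more in each set of barcodes (x axis), and bars their medians; Tnf and Ccl4 in Plac8-high barcodes, at 0 UMIs in the wild type, have no point. Interferon medians lie between 0.58 and 0.91 in every set shown, and inflammatory medians between 0.13 in the dendritic gate and 1.03 in Plac8-low barcodes.

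The interferon list in Plac8-high barcodes had 12 of 19 members higher and 0 lower (median 0.91), beside 25.2% and 30.5% of all genes. Plac8-low barcodes had 10 of 16 higher and 0 lower (median 0.86), beside 10.5% and 15.1%. Without the 6 Prg4 barcodes the Plac8-low count was 11 of 16 higher and 1 lower, which was Cxcl10 (median 0.77), beside 9.21% and 16.2%. Irf7 was at 182 against 55.2 CPM in Plac8-high and at 25.6 against 7.62 CPM in Plac8-low barcodes. Ly6e, a GPI-anchored surface protein gene, was at 1170 against 1048 CPM in Plac8-high barcodes and 231 against 132 CPM in Plac8-low ones. C1q macrophages, the dendritic gate and the stromal gate had medians of 0.77, 0.74 and 0.58, with 13 of 18, 6 of 11 and 10 of 20 members higher, beside 3.66%, 5.77% and 3.59% of all genes.

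Genes of patrolling monocytes were higher in the knockout gate. The list had 12 members at 10 CPM or more, of which 8 were higher and 0 lower by 1.5-fold (median 1.01), beside 9.74% and 14.7% of all genes. In Plac8-high barcodes 10 of 13 were higher (median 1.57), or 9 (median 1.49) when Cd300e, at 0 UMIs in the wild type, is set against 3 counts. There 25.2% of all genes were higher. In Plac8-low barcodes 4 of 10 were higher and 0 lower (median 0.40), beside 10.5% and 15.1% of all genes. In C1q macrophages 4 of 6 were higher and 0 lower (median 0.77), beside 3.66% and 3.9%. The dendritic gate had 2 of 10 higher and 1 lower, beside 5.77% and 8.46%, and the stromal gate had 0 of 4 higher. Treml4, a receptor of patrolling monocytes, had 45 and 6 UMIs, of which 42 and 3 lay in Plac8-high barcodes. Its Plac8-high levels were 149.9 and 27.6 CPM (log2 2.44, 0.80 to 4.78). Ace, the angiotensin-converting enzyme gene, was at 310.5 against 110.4 CPM there (log2 1.49, 0.61 to 2.499). Spn, the sialoglycoprotein CD43, was at 246 against 82.8 CPM (log2 1.57). Pglyrp1, a peptidoglycan-binding protein gene, was at 57.1 against 8.93 CPM in the gate (log2 2.68), but Plac8-low barcodes without the 6 Prg4 barcodes held 14 and 6 UMIs of it. Ear2, the most abundant member, was at 614 against 492 CPM. Itgal passed 1.5-fold in the gate but in neither stratum. Plac8-high barcodes were 32.0% of the knockout and 16.5% of the wild-type gate, and the part of this in the gate counts was not tested.

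Classical monocyte genes went in mixed directions. In the gate 5 of 14 were higher (Thbs1, Clec4e, Hp, Cd14 and Gda) and 1 was lower, with a median of 0.36, beside 9.74% and 14.7% of all genes. In Plac8-high barcodes 1 of 14 was higher and 5 were lower (among them Fn1, Mgst1, F13a1 and Vcan), with a median of -0.19. The share lower is near the 30.5% of all genes that were lower there, and 25.2% were higher. F13a1, the coagulation factor XIII A chain, was at 236 against 690 CPM there (log2 -1.55, -2.05 to -1.05). Vcan, the matrix proteoglycan versican, had 22 and 18 UMIs, or 78.5 against 166 CPM. Ly6c2 was near equal there, at 446 and 423 CPM. Cd14, the lipopolysaccharide co-receptor, was at 859 against 489 CPM in the gate (log2 0.81).

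MHC class II genes did not differ by 1.5-fold in the gate apart from their regulator. Of 9 members at 10 CPM or more, 8 lay between and 1 was lower (median -0.18), where 14.7% of all genes were lower. Cd74, the invariant chain, was at 8289 against 8806 CPM, and the class II transactivator Ciita at 51.6 against 91.6 CPM (log2 -0.83, -1.30 to -0.36). In Plac8-high barcodes the sums differed, with H2-Aa at 2127 against 947 CPM (log2 1.17) and 5 of 7 members higher, beside 25.2% of all genes. There the median per barcode was lower in the knockout (8.43 against 19.5 CP10k), while the upper quartile was 129.8 against 27.6 CP10k.

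**Figure D5:**
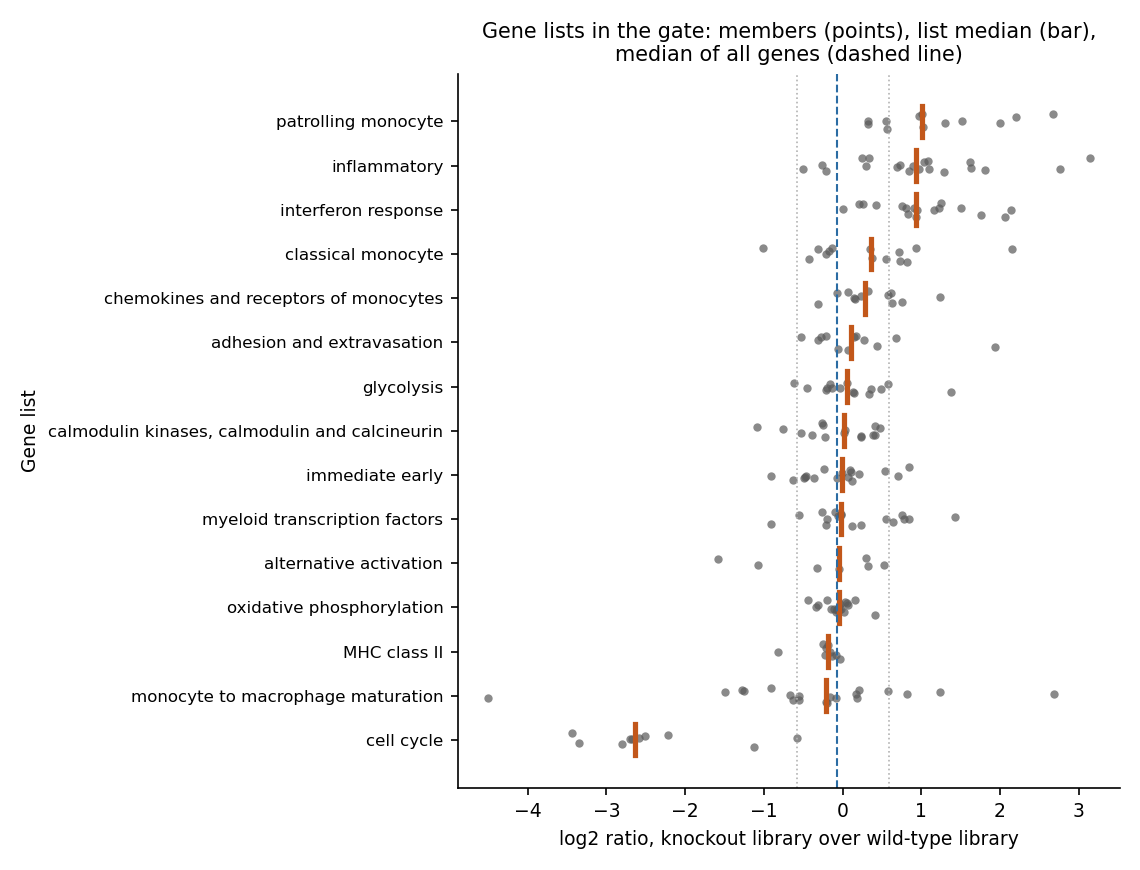
Grey points are the log2 ratios, knockout over wild type, of the members of 15 gene lists at 10 CPM or more in the gate; orange bars are list medians, the dashed line is the median of all genes (-0.08) and dotted lines mark 1.5-fold. The patrolling, inflammatory and interferon lists have medians of 1.01, 0.94 and 0.93, and the cell cycle list of -2.63.

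Cell cycle genes were the lowest group. Of 10 members at 10 CPM or more, 9 were lower by 1.5-fold or more in the knockout gate, 0 were higher and the median was -2.63. Over all genes at that level 14.7% were lower and 9.74% higher. Mki67, which marks proliferating cells, had 49 UMIs in 15 knockout and 211 UMIs in 31 wild-type barcodes (log2 -2.80, -3.28 to -2.35). Stmn1, a microtubule regulator of dividing cells, had 75 and 216 UMIs (log2 -2.22). At least 5 UMIs of 6 cell cycle genes were found in 4 of 97 knockout barcodes (4.12%, 1.13 to 10.2) and 14 of 115 wild-type barcodes (12.2%, 6.82 to 19.6). All of these were Plac8-low. In C1q macrophages the shares were 4.82% and 3.64%, and the list median was -0.37. The tubulin genes Tubb5, Tubb2a and Tuba1b were also among the 12 lowest, with log2 ratios of -1.47, -1.35 and -0.97.

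Genes of lipid-handling macrophages at the low end leaned in part on 1 wild-type barcode. That barcode had 38261 UMIs, the most of any gated wild-type barcode, and held 85.0% of wild-type Ctsk UMIs, 69.7% of Gpnmb, 56.4% of Fabp5 and 35.7% of Trem2. Ctsk (cathepsin K) was at 3.44 against 201 CPM (log2 -5.87), and -3.87 without the leading barcode of each library. Gpnmb, a lysosomal glycoprotein of lipid-laden macrophages, was at 14.5 against 328 CPM (log2 -4.51, or -3.09 without it). Trem2, the lipid receptor of such macrophages, was at 105 against 250.1 CPM (log2 -1.25, or -0.81 without it). Ctsk, Gpnmb and Trem2 thus stayed lower by more than 1.5-fold without the leading barcode of each library. The maturation list as a whole had 3 higher, 7 lower and 10 between of 20 members, beside 9.74% higher and 14.7% lower of all genes. The list median was -0.21. Lgals3 (galectin 3), its most abundant member, was at 1780 against 2839 CPM (log2 -0.67, or -0.29 without the leading barcodes).

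Of 7 alternative activation genes at 10 CPM or more, 2 were lower in the knockout gate, Retnla and Mgl2, and 0 were higher (median -0.04). Over all genes at that level 14.7% were lower and 9.74% higher (median -0.08). Retnla had 3232 UMIs in 66 knockout barcodes and 4182 UMIs in 82 wild-type barcodes, or 2225 against 4669 CPM (log2 -1.07, -1.136 to -1.003). Its median per barcode was 0.934 and 2.498 CP10k with upper quartiles of 2.52 and 49.8 CP10k, so its high levels lay in a minority of barcodes. Mgl2, a galactose-binding lectin gene, was at 45.4 against 136 CPM (log2 -1.58, -2.04 to -1.14). In C1q macrophages Retnla went the other way, with a log2 ratio of 1.72. The remaining members lay within 1.5-fold.

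Chemokine and adhesion genes had the following counts. Of 12 chemokines and receptors at 10 CPM or more, 4 were higher by 1.5-fold (C5ar1, Ccrl2, Cmklr1 and Fpr2) and 0 were lower (median 0.28), beside 9.74% and 14.7% of all genes. In Plac8-high barcodes 7 of 12 were higher and 2 lower, Ccr1 and Ccl9 (median 0.72), beside 25.2% and 30.5% of all genes. C5ar1, the receptor of the complement fragment C5a, was at 99.8 against 59.2 CPM (log2 0.75, 0.29 to 1.24). Ccl6, the most abundant chemokine, was at 1904 against 1708 CPM. Of 12 adhesion genes, Itgb2 (the shared chain of leukocyte integrins, 446 against 279 CPM, log2 0.68) and Pecam1 were higher and 0 were lower. Over all genes 9.74% were higher and 14.7% lower. In Plac8-high barcodes 3 of 12 were higher and 1 lower (median 0.22), where 25.2% and 30.5% of all genes were. The share higher there is near that of all genes. Pecam1 is also an endothelial marker, and its 31 knockout UMIs lay in 8 barcodes. Ccl2 itself was at 160.4 against 199.9 CPM in the gate, but at 1418 against 501 CPM in C1q macrophages. Immediate early genes had 2 higher, 2 lower and 13 between (median -0.01), beside 9.74% higher and 14.7% lower of all genes. Atf3, a stress factor of this list, was at 385 against 720.2 CPM (log2 -0.90, -1.07 to -0.74), with a log2 ratio of -2.41 in Plac8-high barcodes. There 0 of 16 immediate early genes were higher and 5 lower (median -0.21), beside 25.2% and 30.5% of all genes.

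Energy metabolism genes were near level in the gate, where 9.74% of all genes at 10 CPM or more were higher and 14.7% lower. All 19 oxidative phosphorylation genes lay within 1.5-fold (median -0.05), and 13 of 15 glycolysis genes did (median 0.05). Cox4i1, a subunit of cytochrome c oxidase, was at 677 against 855 CPM (log2 -0.34), and Gapdh, a glycolytic enzyme, at 978 against 891 CPM (log2 0.13). In Plac8-high barcodes 6 of 15 glycolysis genes were higher and 2 lower (median 0.35), beside 25.2% and 30.5% of all genes. The count higher was 5 (median 0.14) with Pfkl, at 0 wild-type UMIs, set against 3 counts. Of 19 oxidative phosphorylation genes there, 1 was higher and 1 lower.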

How the data were processed

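The values are UMI counts for 32285 genes, deposited by the authors as a sparse matrix for each library and left unchanged. Cell Ranger 5.0.0, Seurat 4.1.1 and the build mm10 are named, per the submitters' processing notes, with no account of which step each served. Per the labels, 10000 to 13000 cells were loaded per channel. Columns of other samples numbered 0.

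The gate was applied with Python 3.11.15, numpy 2.4.6, scipy 1.17.1 and pandas 2.3.3. UMIs were summed over the gated barcodes of a library and divided by their total, as CPM. Levels carry exact Poisson intervals, shares Clopper-Pearson intervals, and ratios the interval of the binomial split of UMIs between libraries. Where no UMI was seen, 3 were taken as the upper limit. A gene was called at 1.5-fold or more. No library had a replicate, so no test was run. Intervals cover counting error only. No doublet caller was run and no cells were clustered; all comparison types are gates. The stromal gate (40 CP10k or more of Col1a1, Col3a1 and Dcn, Lyz2 under 20 CP10k, no Ptprc) was expected to lack monocyte genes. This did not hold for Plac8, as given above. C1q macrophages meet the gate except that they hold 10 CP10k or more of C1q and need no marker UMIs; the dendritic gate needs 3 UMIs of the dendritic genes.

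The members, the 15 lists (239 genes) and the rule for named genes were chosen with earlier results of these data known. The text draws its genes from those with the 12 highest and 12 lowest ratios at a mean of 100 CPM or more, without gate, ribosomal, mitochondrial, haemoglobin, immunoglobulin, receptor segment, Gm and Rik genes. In each list they are the most abundant member and the 2 with the largest change, and against macrophages the 12 most above and 8 most below. Other named genes were picked after their values were seen, and a few genes that the rule names are not reported here. Gene positions are from GENCODE M21. The ratio intervals were tested on simulated counts, drawn independently for each gene and without barcodes. That simulation cannot show how the intervals perform where UMIs of a gene gather in single barcodes, as they do for some genes here. Alternatives were other scalings, floors, folds, gates, depths and strata.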

Additional observations from a re-analysis of the deposited data

How the results depend on the processing

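No paired analysis was possible because each genotype has 1 library. The counts of 181 genes higher and 140 lower went to 82 and 54 with a floor of 100 CPM, to 414 and 409 with a floor of 20 CPM, and to 60 and 31 at 2-fold. When the gate was applied to barcodes thinned to 1500 UMIs, 47 and 53 barcodes passed, of which only 36 and 35 were in the main gate. In that partly different set 279 genes were higher and 187 lower, and the Camk2d log2 ratio was 1.00. In Plac8-high barcodes 75 were lower. Under the 8 other settings that give these counts, 154 to 202 were higher, apart from the 266 in Plac8-high barcodes, and 121 to 194 lower.

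The gate's share was 1.06% of knockout and 0.634% of wild-type barcodes when at least 6 marker UMIs were required, and 1.24% and 1.35% when each barcode needed at least 3000 UMIs. It was 0.585% and 0.405% after thinning, 6.39% and 3.08% of Lyz2 barcodes, and 0.921% and 0.680% without barcodes holding T, B, natural killer, endothelial or mast markers (a setting chosen after seeing the data, as are the strata). The planned removal of barcodes with any other lineage's markers left 0 barcodes and gives no value.

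In the set gated after thinning, Fabp4 (-0.65), Il1a (-0.98) and Pecam1 (-1.69) reversed. Without the other-lineage barcodes Pecam1 (-1.33) and Hk3 (0.49) reversed. In Plac8-high barcodes Serpinb2 (-0.044), Retnla (0.33), Ciita (0.049), Osm (-0.43) and Mgl2 (0.96) reversed, and in Plac8-low barcodes Treml4 (-0.58). The cause was not tested. Medians of the interferon list stayed between 0.77 (Plac8-low without the Prg4 barcodes) and 1.395, of the inflammatory list between 0.52 and 1.03 and of the patrolling list between 0.40 and 1.77.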

Other observations

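Genes outside the 15 lists also appeared at the upper end. Dusp5 and Dusp2, phosphatases induced by MAP kinase signalling that switch it off, were at 242 against 86.0 CPM (log2 1.49, 1.13 to 1.87) and at 173 against 63.6 CPM (log2 1.45, 1.03 to 1.89). Their UMIs were spread over 67 and 40 barcodes for Dusp5 and 59 and 33 barcodes for Dusp2. Without the 6 Prg4 barcodes the log2 ratios in Plac8-low barcodes were 1.61 and 1.70. Areg, the epidermal growth factor receptor ligand amphiregulin, was at 197 against 68.1 CPM (log2 1.53, 1.13 to 1.96), in 25 knockout and 15 wild-type barcodes. In C1q macrophages Areg had a log2 ratio of 1.76.

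Blvrb, a biliverdin reductase that acts in haem breakdown, was at 70.2 against 154 CPM (log2 -1.13, -1.52 to -0.75), and at -0.94 without the leading barcode of each library. Erythroid transcripts were also lower in knockout gated barcodes, as given above, and their part in this value was not tested.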
